A study of Homo sapiens with 4 samples.

Results

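Sphingolipids are membrane lipids built on a long-chain base, and their synthesis starts in the endoplasmic reticulum. Serine palmitoyltransferase (SPT) joins serine to palmitoyl-CoA, a reductase turns the product into dihydrosphingosine, ceramide synthases attach a fatty acid and a desaturase yields ceramide. Ceramide is then passed to enzymes that make glucosylceramide or sphingomyelin, and ORMDL proteins hold SPT in check when ceramide is plentiful. The 10 genes described here cover this route. SPTLC1, SPTLC2 and SPTLC3 encode subunits of SPT, KDSR the reductase, CERS2, CERS5 and CERS6 ceramide synthases, DEGS1 the desaturase, UGCG the glucosylceramide synthase and ORMDL3 an inhibitor of SPT. They were chosen by name from 19702 protein-coding genes, so that their binding by the transcription factor c-MYC could be read gene by gene.

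Binding was read by ChIP-seq, short for chromatin immunoprecipitation and sequencing, in which DNA bound to a protein is recovered with an antibody and places with piled-up fragments are called as peaks. All libraries came from MIA PaCa-2, an established human line of pancreatic ductal adenocarcinoma. Cells received the solvent DMSO, the inhibitor AMG510 at 100 nM or the MEK inhibitor trametinib at 10 nM, each for 8 h. There were 4 libraries, 1 c-MYC library for each treatment and 1 library made with non-specific immunoglobulin (IgG) from DMSO cells. The libraries therefore have no replicate check, a difference is one between libraries rather than treatments, and no test was made. Both inhibitor libraries were set against the same DMSO library. The peak lists hold no expression values, so the cell line could not be checked against marker genes here, and fewer bound cells cannot be told apart from less binding per cell.

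The IgG list held 2966 peaks, and the c-MYC lists held 9552 for DMSO, 10378 for AMG510 and 5431 for trametinib. An estimated 22700000 to 24800000 tags per library entered peak calling, derived from the most frequent background value, the smallest peak width and an assumed genome size. A tag is 1 aligned read, and both mates of a read pair counted. The number of tags at each summit, the highest point of a peak, was recovered from the deposited values. The median was 10 tags in IgG and 11 to 13 in the c-MYC libraries. Fold enrichment is the summit pileup over the local background, each with 1 added, and its median lay between 4.42 and 4.6. The intervals on tag numbers given here are 95% Poisson intervals, cover counting error only and are too narrow where mates of 1 fragment were both counted.

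The bases under the peaks that carry the account are given first, from GRCh38, 5′ to 3′ on the strand of the gene. Capitals mark the 11 bases centred on each c-MYC summit. The KDSR run, chr18:63366891-63367148 on the minus strand, holds the summits of trametinib, DMSO and AMG510 in that order. The second KDSR run, chr18:63367337-63367570 on the minus strand, is a peak listed in AMG510 alone. The CERS2 run, chr1:150974448-150974563 on the minus strand, is the stretch around the DMSO summit. The CERS6 promoter run, chr2:168456043-168456254, and the CERS6 intron run, chr2:168490493-168490759, both on the plus strand, are whole DMSO peaks, and the second is shown as a contrast in base composition.
KDSR, start of the gene: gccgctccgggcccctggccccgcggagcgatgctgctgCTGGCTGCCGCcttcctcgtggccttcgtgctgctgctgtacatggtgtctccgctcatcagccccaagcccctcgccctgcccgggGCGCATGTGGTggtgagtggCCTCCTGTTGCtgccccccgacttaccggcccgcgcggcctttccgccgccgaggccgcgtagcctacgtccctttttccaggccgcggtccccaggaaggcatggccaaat
KDSR, upstream: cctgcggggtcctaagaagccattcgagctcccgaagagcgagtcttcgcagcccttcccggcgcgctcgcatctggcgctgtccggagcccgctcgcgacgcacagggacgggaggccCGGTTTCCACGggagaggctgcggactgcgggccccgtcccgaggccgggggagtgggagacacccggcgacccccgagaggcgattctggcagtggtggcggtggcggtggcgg
CERS2: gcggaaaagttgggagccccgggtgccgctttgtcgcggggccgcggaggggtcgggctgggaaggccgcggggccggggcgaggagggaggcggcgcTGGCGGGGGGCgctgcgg
CERS6, promoter: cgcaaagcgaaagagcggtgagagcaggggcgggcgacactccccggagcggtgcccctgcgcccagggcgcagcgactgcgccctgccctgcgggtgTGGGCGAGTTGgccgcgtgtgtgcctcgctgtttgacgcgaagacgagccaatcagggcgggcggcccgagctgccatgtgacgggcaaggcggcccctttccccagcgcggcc
CERS6, intron 1: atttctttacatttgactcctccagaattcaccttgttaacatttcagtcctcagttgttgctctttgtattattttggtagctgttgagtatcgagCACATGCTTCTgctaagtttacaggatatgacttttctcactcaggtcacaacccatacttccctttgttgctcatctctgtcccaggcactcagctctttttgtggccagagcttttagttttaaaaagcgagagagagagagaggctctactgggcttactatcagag

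A promoter peak was one with its summit no more than 1 kb from where a protein-coding transcript of the gene begins, its transcription start site (TSS). In DMSO, 3 of the 10 genes had a promoter peak, namely KDSR, CERS2 and CERS6, and in AMG510 and in trametinib only KDSR had one. The IgG list held none at any of the 10. The same rule applied to all protein-coding genes gave 24.2% for DMSO, 15.3% for AMG510, 11.8% for trametinib and 0.594% for IgG. The members' shares of 30.0% in DMSO and 10.0% in each inhibitor library were near these levels, so the number of bound genes was no result about the pathway. No gene was near the edge of the window. The farthest promoter summit lay 240 bp from a TSS and the nearest summit outside the window 27.3 kb from one.

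**Figure D1:**
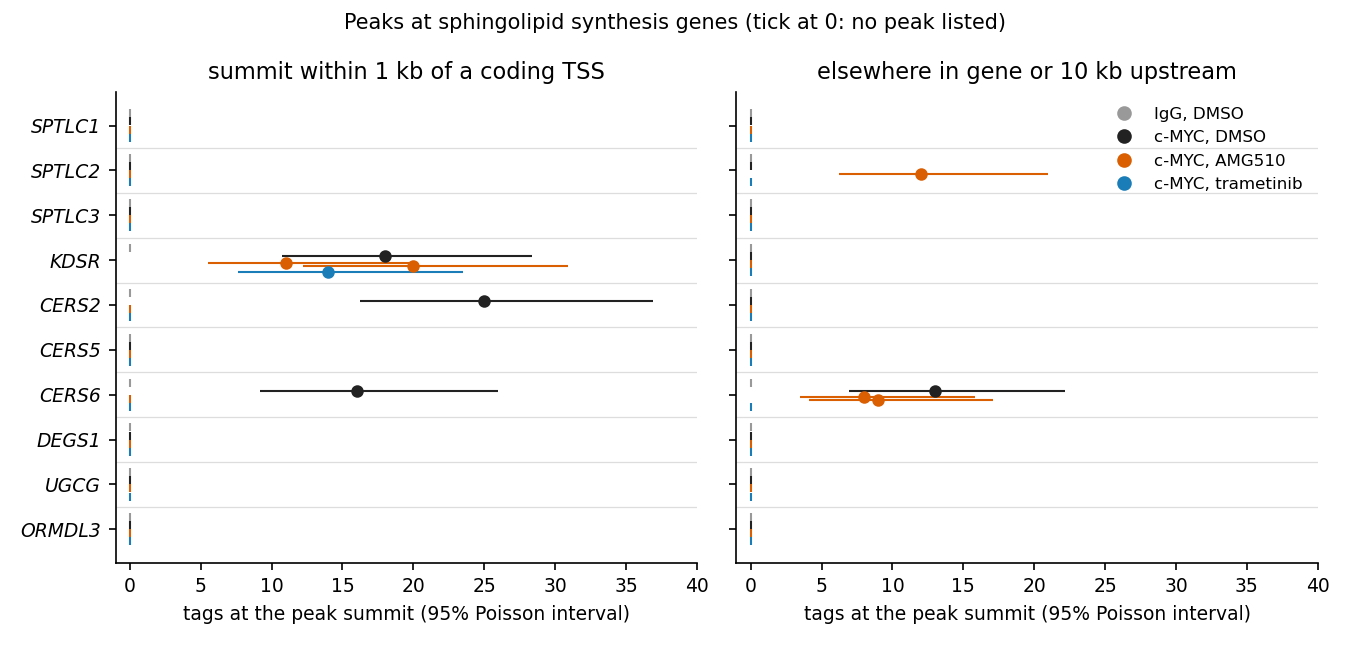
Tags at the summit of each peak (x axis) at the 10 sphingolipid synthesis genes (y axis), with promoter peaks on the left and peaks elsewhere in the gene or within 10 kb upstream on the right. Points are peaks coloured by library, bars are 95% Poisson intervals and ticks at 0 mark no listed peak, not a count of 0. KDSR carries promoter peaks in the 3 c-MYC libraries, with 11 to 20 tags.

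The genes for SPT, which catalyses the first step, had no promoter peak in any library. For SPTLC1, the subunit shared by all forms of the enzyme, the nearest DMSO summit was 178 kb from a coding TSS of the gene, where it held 21 tags 185 bp from the start of IARS1. For SPTLC2, a catalytic subunit, that distance was 144 kb, and for SPTLC3, an alternative catalytic subunit with a different acyl-CoA preference, it was 94.5 kb. The single peak listed at any of the 3 genes was in AMG510, at chr14:77511929-77512132 in the 3′ UTR of SPTLC2, in exon 12. Its summit lay 85328 bp from the nearest coding TSS and held 12 tags (6.2 to 21.0) with a fold enrichment of 4.44, at percentile 50.5 of that list.

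The study lowered SPTLC1 and SPTLC2 by CRISPR interference, in which a guide brings a repressor to the start of a gene. The guides are shown because they mark the starts that were targeted, and none of the 4 lists had a peak there.
SPTLC1 guide: gcgctgggactagaagctcc
SPTLC2 guide: ggcaaggcaggctctgtagg
Bases 2 to 20 of each matched the plus strand of GRCh38 once within the searched 5 kb on either side of the TSS, at chr9:92115152-92115170 in intron 1 of SPTLC1, 252 bp downstream of the canonical TSS, and at chr14:77616599-77616617 in the 5′ UTR of SPTLC2, 29 bp downstream. Each match was followed by CGG, a PAM read by the common Cas9.

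KDSR was the 1 member with a promoter peak in each c-MYC library, and the peaks there overlapped. It is a minus-strand gene of chromosome 18 (63327726 to 63367228, ENSG00000119537.18), with its canonical TSS at 63367206. The DMSO peak, chr18:63366891-63367189, had its summit 189 bp downstream of that TSS in coding exon 1. It held 18 tags (10.7 to 28.4) over a background of 3.03, with a fold enrichment of 4.72 at percentile 55.7 of the DMSO list. The overlapping AMG510 peak, chr18:63366935-63367174, had its summit 20 bp away in intron 1 and held 11 tags (5.49 to 19.7), with a fold enrichment of 3.61 at percentile 9.66. The trametinib peak, chr18:63366832-63367252, had its summit 87 bp from that of DMSO, in coding exon 1, and held 14 tags (7.65 to 23.5), with a fold enrichment of 4.64 at percentile 54.4. The nearest IgG summit lay 476 kb from a KDSR start.

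Scaled to the estimated tags in calling, the KDSR pileup in AMG510 was 0.604 times that in DMSO, with an exact conditional 95% interval from 0.258 to 1.35. The ratio of trametinib to DMSO was 0.753 (0.346 to 1.6). On the log2 scale the differences were -0.73 (-1.96 to 0.43) and -0.41 (-1.53 to 0.68). Both pileups were lower than in DMSO, and both intervals included a ratio of 1, so a difference was not detectable at this depth. The upper bounds also leave room for a pileup as much as 1.35 times and 1.6 times that of DMSO. At the DMSO background of 3.03, 11 tags were the fewest that would have been called in either inhibitor library. The AMG510 peak held 11, over a lower background of its own of 2.32. A ratio much lower than that of AMG510 could therefore hardly have been seen from listed peaks.

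A further KDSR peak was listed in AMG510 alone. It lay upstream at chr18:63367337-63367570, with its summit 240 bp before the canonical TSS, and held 20 tags (12.2 to 30.9). Its fold enrichment of 6.53 ranked 417 of 10378 in the AMG510 list, at percentile 96.0, and was above that of every other member peak in any library. A gap of 147 bp separated it from the DMSO peak and 84 bp from the trametinib peak. The summit also fell 151 bp inside KDSR-DT, a divergent long non-coding RNA gene whose annotated start is 89 bp upstream of the canonical KDSR start, so the peak cannot be assigned to one of the pair by position. The pileup at this place in DMSO and trametinib is not known, because a list gives values only at its own peaks.

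**Figure D2:**
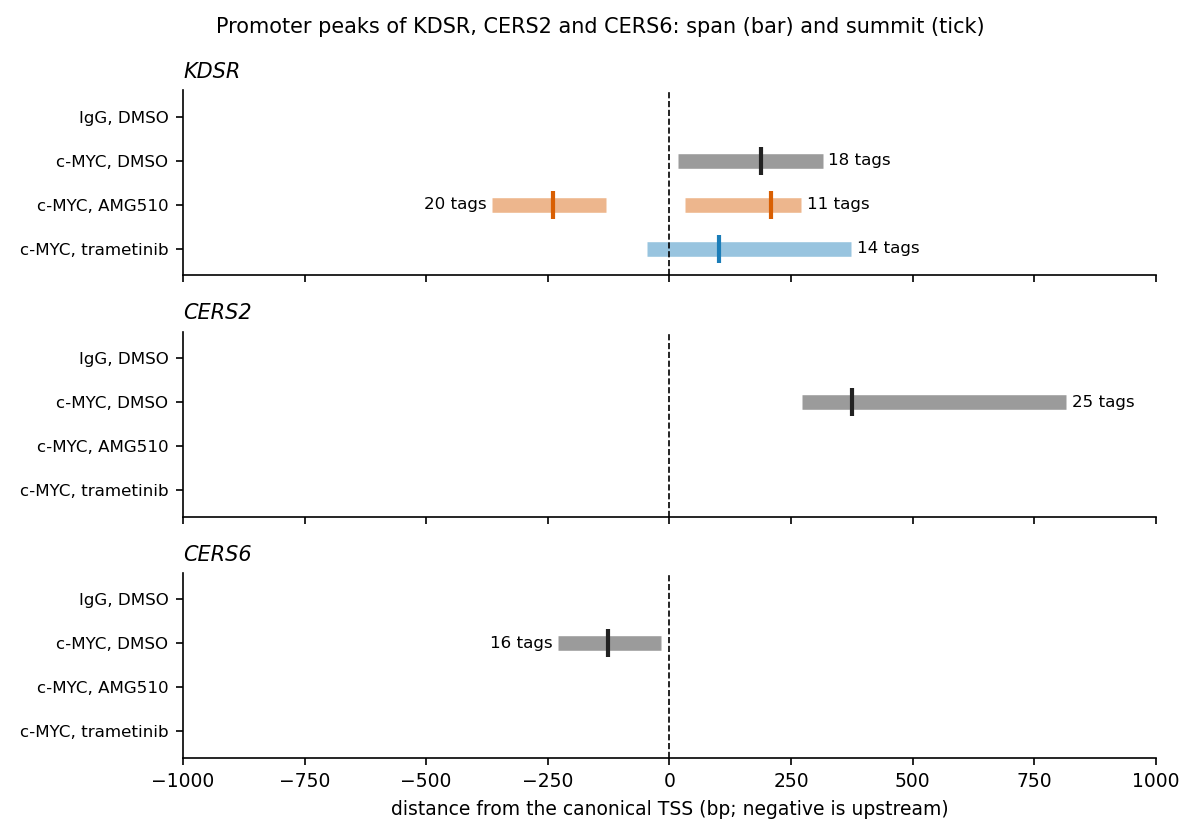
Span (bars) and summit (ticks) of the promoter peaks of KDSR, CERS2 and CERS6 by library, with distance from the canonical TSS in bp on the x axis and tags beside each bar. At KDSR the DMSO, trametinib and 1 AMG510 peak overlap downstream of the TSS while the second AMG510 peak, with 20 tags, lies upstream.

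Of the ceramide synthase genes, CERS2 and CERS6 had a promoter peak in DMSO and in no other library, and CERS5 had none. CERS2, which makes ceramides with very long acyl chains, lies on the minus strand of chromosome 1 (150960583 to 150975003). Its DMSO peak, chr1:150974019-150974563, was 545 bp wide, with a summit in intron 1, 375 bp past the canonical TSS and 17 bp from where a shorter coding transcript starts. With 25 tags (16.2 to 36.9) it had the highest pileup of any member peak, and its local background of 4.3 was also the highest, giving a fold enrichment of 4.9 at percentile 62.2. At that background, 13 tags in AMG510 and 14 in trametinib would have been enough for a call. No peak lay closer to a CERS2 start than 95.6 kb in AMG510 and 41.2 kb in trametinib.

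CERS6, which prefers palmitoyl-CoA, lies on the plus strand of chromosome 2 (168456249 to 168775134) and is the longest of the 10 genes, at 319 kb. Its DMSO promoter peak, chr2:168456043-168456254, had its summit 126 bp upstream of the canonical TSS and held 16 tags (9.15 to 26.0), with a fold enrichment of 5.18 at percentile 71.1. A pileup of 9 tags would have been called there in either inhibitor library at the DMSO background. The tag counts below those limits are not known, so the lists do not say how far the inhibitor libraries fell short at CERS2 and CERS6.

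CERS6 also had peaks within the gene, none of which overlapped another. The DMSO peak in intron 1, chr2:168490493-168490759, lay 34323 bp into the gene and held 13 tags (6.92 to 22.2), with a fold enrichment of 5.4. In AMG510 a peak at chr2:168483501-168483699 in intron 1 held 8 tags and a peak at chr2:168765393-168765549 in intron 8 held 9 tags, with fold enrichments of 3.73 and 3.65 at percentiles 13.9 and 11.1. Counting peaks elsewhere in the gene or within 10 kb upstream, 1 member had one under DMSO, 2 under AMG510, 0 under trametinib and 0 with IgG. Over all protein-coding genes the shares were 13.7%, 16.8%, 8.98% and 6.39%, and a long gene has more room for such a peak.

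CERS5, another synthase that prefers palmitoyl-CoA, had no peak by either rule, and its nearest DMSO summit was 79.7 kb away. The same held for DEGS1, the desaturase, at 133 kb, and for UGCG, which adds glucose to ceramide, at 265 kb. ORMDL3, the inhibitor of SPT, had its nearest DMSO summit at 53.4 kb, where 16 tags lay 174 bp from the start of PSMD3. The start of LRRC3C is 131 bp from that of ORMDL3, and that shared promoter had no peak in any list. In all, 6 of the 10 genes had no peak by either rule in any library, and SPTLC2 had only its 3′ UTR peak.

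Of the 3 genes with a DMSO promoter peak, 1 had that peak overlapped in AMG510 and 1 in trametinib, KDSR in both cases. Among the 4772 genes with a DMSO promoter peak, 35.9% had one overlapped in AMG510 and 30.5% in trametinib. The shares of 1 in 3 were near these levels. In fold enrichment, the DMSO promoter peaks of KDSR, CERS2 and CERS6 lay between 4.72 and 5.18, against a median of 4.6 for all DMSO peaks. In that order, the peaks stood at percentiles 55.7, 62.2 and 71.1 of the DMSO list. Counts of members moved with the threshold. Above a fold enrichment of 5, only CERS6 was left in DMSO and none in trametinib, while the upstream peak kept KDSR in AMG510.

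c-MYC binds DNA with its partner MAX, with a preference for the E-box CACGTG, and is found widely at CpG-rich promoters. CACGTG reads the same on both strands. It lay within 100 bp of the DMSO promoter summit at 0 of the 3 bound members and at 18.4% of all genes with a DMSO promoter peak. Within 1 kb of the canonical TSS, 3 of the 10 members had an E-box, against 29.2% of all protein-coding genes. These were SPTLC1, SPTLC2 and UGCG, none of which had a promoter peak, while KDSR, CERS2 and CERS6 had no E-box in that window. The E-boxes are shown in capitals on the gene strand, with 12 bases on either side, because they mark the starts that hold the preferred letters without a listed peak. They are at chr9:92115036-92115065 (minus strand), chr14:77617302-77617331 (minus strand) and chr9:111897299-111897328 (plus strand).
SPTLC1: tccggaaaggaaCACGTGtaaggggacgca
SPTLC2: aaatgtgaagggCACGTGaaaaggcatctg
UGCG: ggctatcatctaCACGTGagtgagggaccg
The first lay 360 bp downstream of the TSS in intron 1, the second 677 bp upstream, and the third 497 bp downstream across the end of exon 1. Among all genes, 34.9% of those with an E-box within 1 kb had a DMSO promoter peak (Wilson 95% interval 33.7 to 36.2) and 19.8% of those without (19.1 to 20.5).

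Related letters did occur under the members' peaks. CACGCG, searched on both strands as CACGCG and CGCGTG, lay within 100 bp of the CERS6 promoter summit, which is visible as cgcgtg just after the capitals of its run. With CACGTG or CACGCG, 39.0% of all genes with a DMSO promoter peak had a match. CATGTG, searched on both strands as CATGTG and CACATG, was looked for after the sequences had been seen. It lay within 100 bp of the promoter summits of KDSR and CERS6, inside the capitals of the DMSO summit of KDSR and of the CERS6 intron peak. With any of the 3 motifs, 44.9% of all genes with a DMSO promoter peak had a match, so such letters were common at bound promoters. In the RefSeq promoters (GRCh38.p14, from 250 bases before to 50 after a start), 8 of the 10 genes were matched with 11 windows, of which 0 held CACGTG, against 7.26% of all windows. SPTLC3 and CERS2 were not matched.

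The bound promoters were rich in CpG. Within 1 kb of the canonical TSS, CERS2 had 195 CpG dinucleotides, KDSR 173 and CERS6 138, at percentiles 95.4, 90.7 and 76.6 of all genes, for which the median was 97. The members without a promoter peak ran from 16 at SPTLC3 and 98 at SPTLC1 to 158 at UGCG and 162 at DEGS1. All 3 bound genes were among the 5 members above the upper quartile of 135, where 44.0% of all genes had a DMSO promoter peak (42.6 to 45.4). DEGS1 and UGCG were the other two. Of the remaining 5 members, 4 lay between the median and that quartile, where the share was 32.0% (30.7 to 33.3), and SPTLC3 was below the lower quartile of 52, where it was 2.98% (2.54 to 3.49). Among the listed peaks, base composition differed by place, which is another contrast than that between promoters with and without a peak. Those at promoters had a GC content between 73.1% and 75.4%, and those in the bodies of SPTLC2 and CERS6 between 39.7% and 43.3%, with at most 2 CpG each.

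**Figure D3:**
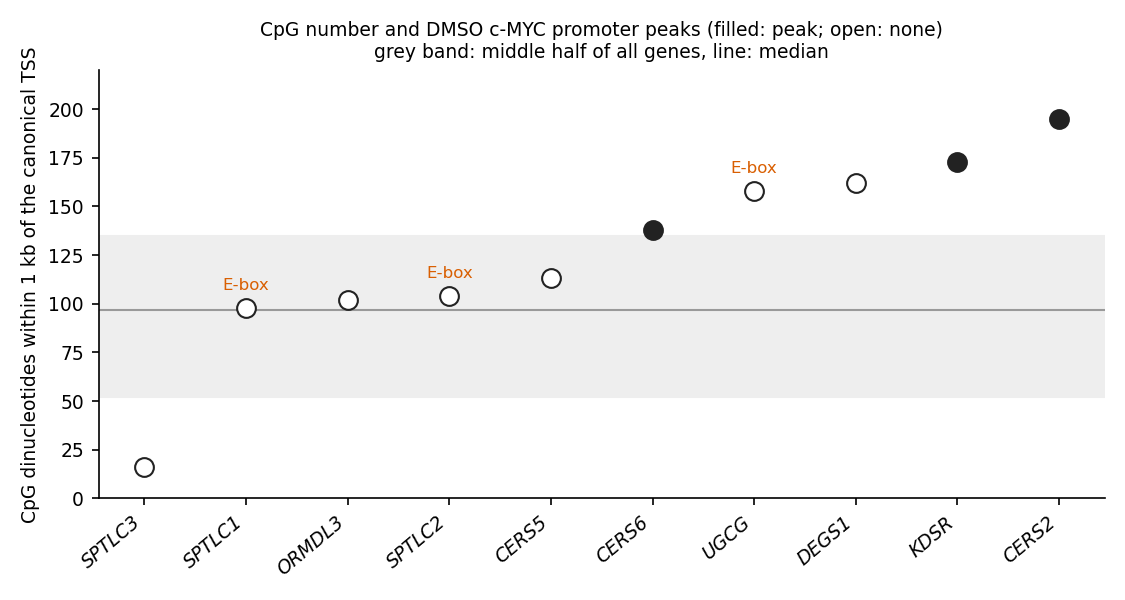
Number of CpG dinucleotides within 1 kb of the canonical TSS (y axis) for the 10 genes in ascending order (x axis), filled where the gene had a DMSO c-MYC promoter peak and open where it had none, with genes holding CACGTG in that window labelled E-box. The grey band from 52 to 135 spans the lower to the upper quartile of all genes and the line is their median of 97. The filled points, at 138, 173 and 195, lie above the band, as do UGCG and DEGS1.

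The other genes of sphingolipid metabolism comprised 33 genes of regulation, further ceramide synthesis, conversion and breakdown. A promoter peak was present at 14 of them under DMSO (42.4%), 9 under AMG510 (27.3%), 10 under trametinib (30.3%) and 0 with IgG. The background shares were the 24.2%, 15.3%, 11.8% and 0.594% given for all genes. In the c-MYC libraries the counts of these genes were above background and those of the 10 synthesis genes near it, a difference that was not tested. Peaks elsewhere in the gene or within 10 kb upstream were listed at 7 of the 33 genes in IgG, against 6.39% of all genes. The c-MYC counts were 3 for DMSO, 7 for AMG510 and 2 for trametinib, against 13.7%, 16.8% and 8.98%, so IgG equalled or exceeded each of them at these genes.

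**Figure D4:**
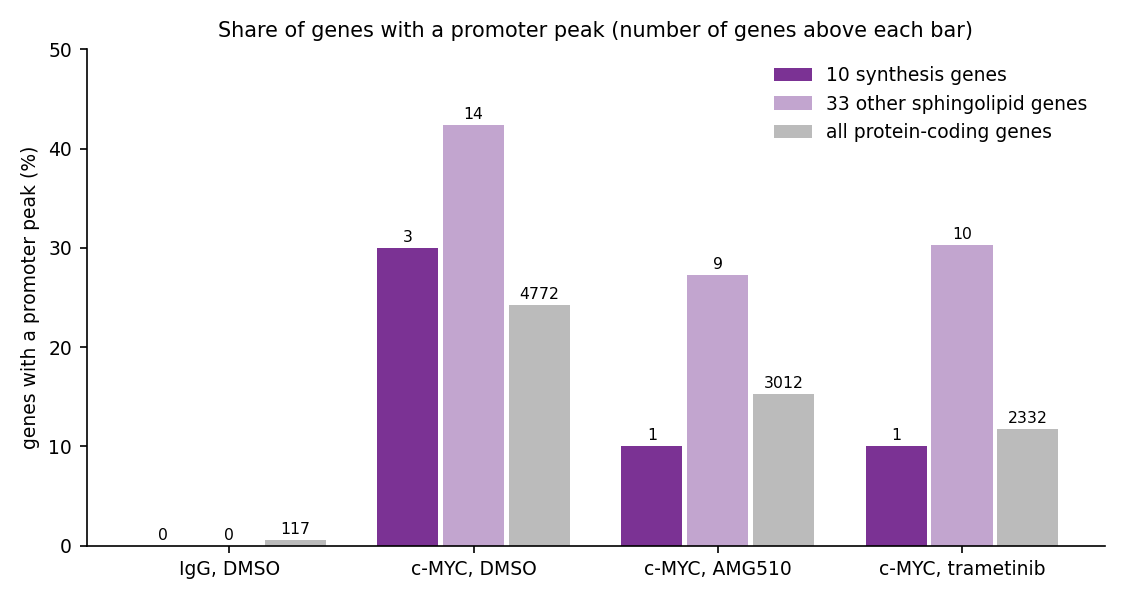
Share of genes with a promoter peak (y axis, percent, from 0) in each of the 4 libraries (x axis) for the 10 synthesis genes, the 33 other sphingolipid genes and all 19702 protein-coding genes, with the number of genes above each bar. The 33 genes stand at 42.4%, 27.3% and 30.3% in the c-MYC libraries and the 10 at 30.0%, 10.0% and 10.0%.

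On the synthesis side, SPTSSA, a small subunit that activates SPT, had a promoter peak in DMSO and AMG510, with 12 and 15 tags. ORMDL1, a further SPT inhibitor, had one in DMSO alone with 17 tags, 158 bp from the start of the neighbour PMS1, and with a CACGTG within 100 bp. Among ceramide synthases, CERS4 had a peak in the 3 c-MYC libraries, with 15 tags under DMSO, 17 under AMG510 and 12 under trametinib, and CERS1 had one in DMSO with 16 tags. Ceramide is turned into sphingomyelin by SGMS1, which had peaks in DMSO and trametinib, and SGMS2, which had one in DMSO. In DMSO and in trametinib, an SGMS1 summit also had a CACGTG within 100 bp. With that of ORMDL1, these were 3 of the 37 promoter peaks of the other sphingolipid genes, and the rest had none. Counted by gene, 18.4% of all genes with a DMSO promoter peak had one. The lactosylceramide synthase genes B4GALT5 and B4GALT6 act one step after UGCG. B4GALT5 had 23 tags under DMSO, 12 under AMG510 and 15 under trametinib, and B4GALT6 had 14 in DMSO and 15 in AMG510.

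On the side of breakdown and signalling, SMPD2 and SMPD4, which encode neutral sphingomyelinases, and SPHK2, a sphingosine kinase, had promoter peaks in the 3 c-MYC libraries. SPHK2 held 28 tags in DMSO, 32 in AMG510 and 33 in trametinib, but its summits were nearer to the start of the ribosomal protein gene RPL18. GALC, which removes galactose from galactosylceramide, was listed in DMSO alone, with 13 tags. SGPP1, a phosphatase of sphingosine 1-phosphate, had a peak in DMSO and trametinib. ACER3 and SMPD3 were listed in AMG510 alone, each with 9 tags, and the ceramidase genes ASAH1 and ASAH2 and the kinase gene SPHK1 in trametinib alone, with 8, 13 and 13 tags. Of the 19 genes of this group with a promoter peak, 6 had the start of another coding gene within 1 kb of a summit, namely PMS1 at ORMDL1, GDF1 at CERS1, PPIL6 at SMPD2, MZT2B at SMPD4, PRPSAP1 at SPHK1 and RPL18 at SPHK2, and at ORMDL1, SMPD2, SMPD4 and SPHK2 that start was the nearer one for at least 1 peak.

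Of the 14 genes of this group with a DMSO promoter peak, 7 had one overlapped in AMG510 and 7 in trametinib, against 35.9% and 30.5% of all genes with such a peak. The pileup ratios of AMG510 to DMSO at 7 genes ran from 0.515 at B4GALT5 to 1.52 at SMPD2, with a median of 1.12, and 2 were below 1. Those of trametinib to DMSO ran from 0.631 at B4GALT5 to 1.18 at SMPD2, with a median of 0.806, and 5 were below 1. In no case did the 95% interval leave out 1. A ratio needed a listed, overlapping peak in both libraries. DMSO peaks without a call under an inhibitor have none, so the ranges and medians do not describe all DMSO peaks of these genes. At SMPD2 and SMPD4 the inhibitors were set against different DMSO peaks. The KDSR ratios of 0.604 and 0.753 lay within these ranges and were formed under the same condition.

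For fatty acid synthesis, which supplies the acyl chains, the promoter counts were 6 of 9 genes under DMSO, 3 under AMG510 and 2 under trametinib. For fatty acid elongation the counts were 3, 2 and 2 of 13 genes, and for cholesterol synthesis 3, 4 and 2 of 20. The shares of all genes were 24.2%, 15.3% and 11.8%, and those of elongation (23.1%, 15.4% and 15.4%) and cholesterol synthesis (15.0%, 20.0% and 10.0%) were near them. Those of fatty acid synthesis (66.7%, 33.3% and 22.2%) were above them, a difference that was not tested. The IgG list held 0 promoter peaks in each of these lists.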

How the data were processed

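The authors deposited 1 MACS2 narrowPeak list per library for 4 MIA PaCa-2 libraries. According to the study's methods and the submitters' processing notes, the authors used Trimmomatic 0.39 for trimming and BWA 0.7.17 for alignment of the paired reads to hg38 (GRCh38), filtered alignments with SAMtools 1.9 and Picard, converted them to BED with bedtools 2.27.1, called peaks with MACS2 2.2.7.1 at a q-value of 0.05 and removed peaks on an exclusion list. Each deposited peak has a score, a fold enrichment, and a −log10 p-value and q-value. IgG is not stated to have been the control in calling, and peaks were treated as called against the library's own background. What AMG510 inhibits and 1 of the 33 other genes of sphingolipid metabolism are not reported here by name.

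Groups were taken from the sample titles. Every contig named in the lists was in the reference, and 1 peak per list ran past the end of its contig. Summits were assigned to TSSs of protein-coding transcripts of GENCODE version 44. The canonical TSS is that of the transcript tagged as canonical. The tags at a summit and the background were solved from the fold enrichment and the −log10 p-value of MACS2's Poisson tail, to within 0.01, and gave whole tags for 100% of peaks in each list. This step was tested on simulated data. Tags in calling were derived from the most frequent background value, with a genome size of 2700000000 bp. Ratios between libraries have exact conditional (Clopper-Pearson) intervals, and overlaps needed 1 bp. Sequences were read from GRCh38, RefSeq promoters and the study's guide list. Python 3.11.15, scipy 1.17.1, pandas 2.3.3 and pysam 0.24.0 were used.

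The 10 genes were all named, and the 33 others were named where a promoter peak was listed. The neighbouring gene was named where its TSS lay within 1 kb of a summit. Genes and lists were chosen with earlier results of these data known. Alternatives were other windows (500 bp, 2 kb), TSS sets, thresholds (fold enrichment above 5, score above 60), overlap rules, motifs and pileup scalings.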

Additional observations from a re-analysis of the deposited data

Results flagged for a closer look

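The number of synthesis genes with a peak elsewhere in the gene or within 10 kb upstream was 1 in DMSO (CERS6), 2 in AMG510 (SPTLC2 and CERS6) and 0 in trametinib, so it was higher than in DMSO under one inhibitor and lower under the other. The shares of all protein-coding genes with such a peak followed the same order, at 13.7%, 16.8% and 8.98%, and the counts are no result about these genes. Above a fold enrichment of 5 the count was 1 in DMSO, 0 in AMG510 and 0 in trametinib, which turns the direction for AMG510. The shares of all protein-coding genes turned in the same way, to 4.36%, 3.84% and 2.5%. Above a score of 60 the count was 0 in each, with shares of all genes of 2.37%, 0.975% and 0.919%. The difference between the inhibitors was not tested, since each had 1 library and both were set against the same DMSO library.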

How the results depend on the processing

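Over 13 results and 60 alternatives, 51 values held (counts within 1.5 times the reported one, ratios inside its 95% interval), 9 moved and 0 reversed. Each value was scored alone, and a count in 1 library has no direction to reverse. Counts of 0 could not fall under a stricter filter, and both KDSR intervals included 1. The tally therefore does not cover the order of libraries. For peaks elsewhere, that of DMSO and AMG510 turned above a fold enrichment of 5, as did the shares of all protein-coding genes. The windows, TSS sets, overlap rules and pileup scalings moved none. Scaling to the uniquely mapped reads given with the study, added after seeing the data because they rank the libraries by depth in another order than the estimated tags, gave KDSR ratios of 0.603 for AMG510 and 0.807 for trametinib. In the other sphingolipid genes it left the AMG510 median at 1.12 and moved that of trametinib to 0.865, with 4 rather than 5 of 7 ratios below 1. Fold enrichments gave KDSR ratios of 0.765 and 0.983. A fold enrichment above 5 left 1 gene with a promoter peak in DMSO (CERS6), 0 in trametinib and 0 with a peak elsewhere in AMG510. A score above 60 left 1 in DMSO (CERS2), 0 in trametinib, and 0 with a peak elsewhere in DMSO and in AMG510. The count for AMG510 promoters stayed at 1 (KDSR). The background shares for promoters fell as well, to 12.1% and 9.8% in DMSO, 5.75% and 2.97% in AMG510, and 4.86% and 2.93% in trametinib. With CACGCG added to CACGTG, 1 gene (CERS6) had a match near a DMSO promoter summit, and with CATGTG as well, chosen after seeing the data, 2 (KDSR and CERS6).

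No paired analysis was possible because no group had more than 1 library, and no library was left out. Member peaks rested on 8 to 25 tags, where the smallest pileups listed in the c-MYC libraries were 7 or 8 and the medians 11 to 13, and the KDSR ratios of 0.604 and 0.753 are imprecise. A gene absent from a list is one without a call, and its tags there are not known.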
